A study of Homo sapiens with 6 samples.

Results

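The ribosome is built from a small and a large subunit, each of which holds ribosomal RNA and a set of ribosomal proteins whose genes start with RPS or RPL. RPLP0, RPLP1 and RPLP2 form the stalk of the large subunit, where translation factors that hydrolyse GTP bind. Ribosomal protein mRNAs are among the most abundant of any dividing cell, and most of them start with an oligopyrimidine tract, a C followed by a run of C and T bases, through which their translation responds to mTOR. Their genes were examined in SU-DHL-2, an established cell line of diffuse large B-cell lymphoma (DLBCL), on 3 arrays of cells cultured with IL-17A (200 pg/ml, 72 h) and 3 arrays of control cells kept without it, at the same cell density and for the same time. The members were the probes whose RefSeq accession has a symbol that starts with RPL or RPS and a digit, or is RPLP0, RPLP1, RPLP2 or RPSA. RPS6K kinases, pseudogene symbols and RPS19BP1 were left out. This gave 164 of 34127 probes and 90 of 19740 named genes. The labels do not say whether the samples came from separate cultures, so that p-values measure the spread between these arrays, which may be technical. One cell line, 1 dose and 1 time were studied.

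Between 23580 and 24079 probes were detected on an array, and no spot was saturated. IL-17A replicate 1 and the 3 controls shared a scan, and IL-17A replicates 2 and 3 shared another. Of the B cell markers, 12 of 12 were detected on the 6 arrays, with a summed normalized signal of 93896 to 95335 with IL-17A and 89911 to 92369 in controls. The 6 tested T and NK cell markers summed to 197 to 221 and 208 to 218, and KLRD1 was not tested. Among these dim markers CD3E was called lower (log2 fold change -0.46, adjusted p = 0.040), and CD8A had -0.51 and CD2 0.51 without a call. The 2 tested monocyte markers, CD14 and FCN1, summed to 79.2 to 89.2 and 91.5 to 100.1, and the part of these dim signals in the results was not tested. Fewer cells of a type and less RNA per cell cannot be told apart in such bulk samples. A difference in signal is given as log2 fold change, IL-17A minus control, after quantile normalization. Signals of different probes are not compared as transcript levels.

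Of the 90 genes, 89 had a tested probe, detected on at least 3 of the 6 arrays, and 160 of the 164 probes were tested, all of them detected on the 6 arrays. RPL34-DT had no tested probe, nor had 1 probe each of RPL10, RPL28 and RPL26L1-AS1. A further 4 symbols that fit the rule, RPL17-C18orf32, RPL37A-DT, RPS10-NUDT3 and RPS21-DT, had no probe. The tested genes were 43 of the large subunit, 31 of the small subunit, 3 of the stalk, 10 paralogues and 2 symbols with a hyphen, which name a read-through or antisense transcript rather than a subunit.

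The tract itself was looked up at the annotated transcription starts, since it is what ribosomal protein mRNAs are known to share. RefSeq (GRCh38.p14) starts were given for 70 of the 87 genes without a hyphen. At 48 of these (68.6%), a C at the first transcribed base was followed by at least 4 bases that are C or T on the transcribed strand, against 5.14% of 27305 genes. Within 10 bases either side of a start, the tract was found for 85.7% against 38.4%. Of 8 paralogues, 2 had it at the start. The start used in these cells may differ from the annotated one. The windows below hold the 15 bases before and the first 15 bases of the transcript, with the tract in capitals. They show RPS12, the subunit gene with an adjusted p under 0.05, the stalk gene RPLP2, RPS6, RPL11 and RPL26, and the paralogues RPL22L1 with a tract and RPS27L without one, beside its parent RPS27. They lie at chr6:132814554-132814583 (plus strand) for RPS12, chr11:809952-809981 (plus) for RPLP2, chr9:19380222-19380251 (minus) for RPS6, chr1:23691791-23691820 (plus) for RPL11, chr17:8383179-8383208 (minus) for RPL26, chr3:170870181-170870210 (minus) for RPL22L1, chr1:153990747-153990776 (plus) for RPS27 and chr15:63157463-63157492 (minus) for RPS27L.
RPS12: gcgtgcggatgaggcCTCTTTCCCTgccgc
RPLP2: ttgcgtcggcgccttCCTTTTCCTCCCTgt
RPS6: aagcggaagttggccCTCTTTTCCgtggcg
RPL11: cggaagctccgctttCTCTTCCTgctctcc
RPL26: aagcagcgtgtagttCTCTTCCCTTTTgcg
RPL22L1: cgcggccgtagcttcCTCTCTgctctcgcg
RPS27: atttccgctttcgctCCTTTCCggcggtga
RPS27L: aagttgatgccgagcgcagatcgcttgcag
The 48 genes with a tract at a start had a median log2 fold change of 0.029 and the 22 without one had 0.039, a description with no test. At 75th percentile scaling these medians were -0.13 and -0.12, with 47 of 48 and 19 of 22 genes below control.

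After quantile normalization, ribosomal protein genes differed little between IL-17A and control cells. At 75th percentile scaling, described further below, 83 of the 89 lay below control. The median log2 fold change over the 89 genes was 0.012, beside 0.0032 over all 14747 named genes, and the quartiles of the members were -0.022 and 0.069, against -0.11 and 0.11 for all genes. By sign alone, 57 genes were above control and 31 below, and RPLP2 was equal. None was called higher with an adjusted p under 0.05 (limma, Benjamini-Hochberg over every probe tested) and 2 were called lower, RPS12 and RPS4Y2. Over all named genes, 4.37% were called higher and 3.48% lower. At an unadjusted p under 0.05, 7 members were higher and 5 lower, which is 12 of 89 against 31.8% of all genes. The methods' test, with equal variances in 2 groups, called 0 higher and 0 lower after adjustment, and 11 higher and 4 lower before it. When a change of 1.5-fold was required together with an unadjusted p under 0.05, RPS4Y2 was the single member left, against 1.92% of all genes. This Y-linked gene had a dim probe, at a mean log2 signal of 4.13, the lowest among the members (median 15.38). RPS4Y1, also Y-linked, was similarly dim at 4.24. Whether either signal comes from a transcript of these genes was not tested. RPS4Y2 was named after its values were seen, and its log2 fold change was -0.60 (adjusted p = 0.033 by limma). With normexp background correction and an offset of 50 it was -0.15 (adjusted p = 0.042), below 1.5-fold.

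**Figure D1:**
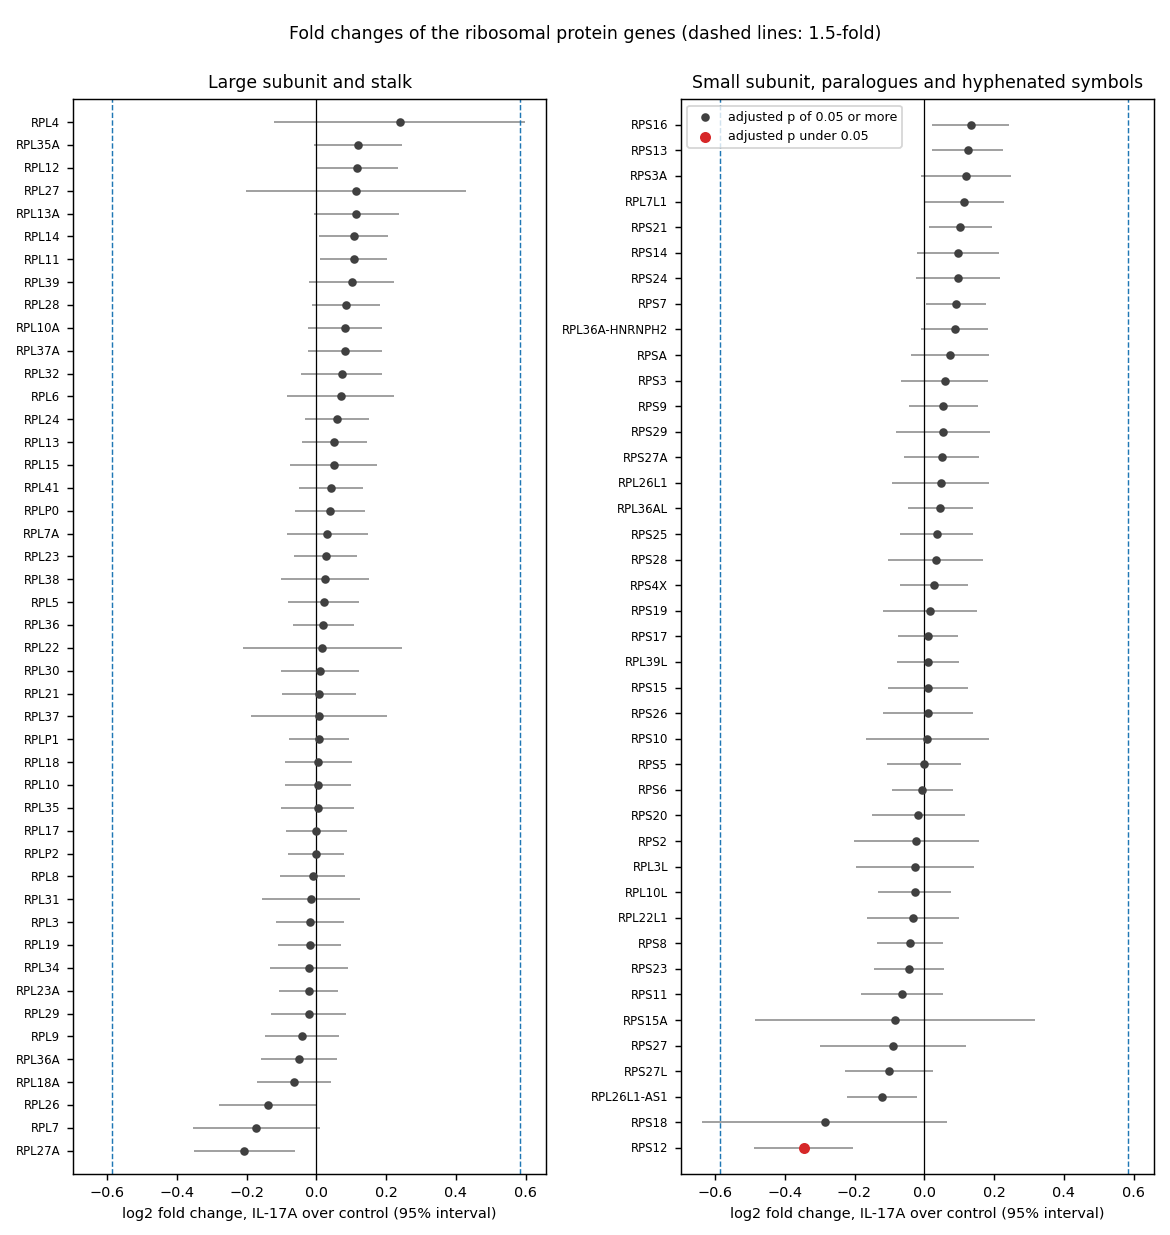
Log2 fold change (IL-17A over control) of 87 ribosomal protein genes (RPS4Y1 and RPS4Y2 are not drawn), each by its brightest tested probe, with the 95% interval from limma. The left panel holds the large subunit and stalk, the right panel the other genes, and the dashed lines mark 1.5-fold. RPS12 at -0.35 is the drawn point with an adjusted p under 0.05, and 86 of all 89 intervals lie within the dashed lines.

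The intervals of the fold change were narrow after quantile normalization. That scaling takes out a shift shared by the brightest probes, and 79 members had a mean log2 signal over 12. What part this has in the narrow intervals was not tested. For 86 of the 89 genes (96.6%) the 95% interval lay within 1.5-fold in either direction, and for 78 (87.6%) within 1.2-fold. The shares over all genes were 84.2% and 45.6%. The median standard error of the log2 fold change was 0.045 for the members and 0.061 for all genes. For 67 members the log2 fold change was under 0.1 in size.

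The direction of the family depended on how the arrays were scaled. Quantile normalization gives the arrays the same set of values, so that a shift shared by the brightest probes is taken out, and 91 of the 200 brightest probes were members. With 1 factor per array, its 75th percentile, 83 of the 89 genes lay below control and 6 above, and the median log2 fold change was -0.14, while all tested probes had a median of -0.025. Without normalization the medians were -0.097 and 0.016. The members thus lay 0.11 below all probes on the log2 scale with either of these, and 0.0045 above them after quantile normalization. The first 2 scales differ by 1 factor per array alone, so that they give the same gap by construction. On the scale of the 75th percentile 59 members had their 3 IL-17A arrays below the 3 controls, against 22.7% of all genes, and 2 had them above. An unadjusted p under 0.05 for a lower level was found for 43 members, against 18.2% of all genes. After adjustment 3 were called lower, RPS12, RPL7 and RPS4Y2, against 3.91% of all genes, so that most of these differences did not pass the test one by one, and 0 were called when any 1 of the 6 arrays was left out.

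On the single arrays, the median over the 89 genes of the deviation from the 6-array mean, scaled to the 75th percentile, was -0.10, -0.029 and -0.042 for IL-17A replicates 1 to 3 and 0.058, 0.11 and 0.042 for the controls. The groups did not overlap, and IL-17A replicate 1, the array that shared its scan with the controls, was the lowest. With scan as a block, where IL-17A replicate 1 alone is set against the controls, the median was -0.17. No control was in the other scan, so that scan and IL-17A cannot be told apart for IL-17A replicates 2 and 3. Without normalization the values were -0.085, 0.033 and -0.060 against 0.14, 0.022 and -0.010, and the groups overlapped. Bright genes outside the family moved the same way. The 142 other genes with a mean log2 signal of at least 14 had a median of -0.095 at 75th percentile scaling, and the 74 members in that range had -0.14. In the range from 8 to 10, the median of 3681 other genes was -0.0024. The dimmest other genes, 4670 with a mean log2 signal under 6, were also below control, with a median of -0.087. What part of the shift lies in the signal range was not tested.

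**Figure D2:**
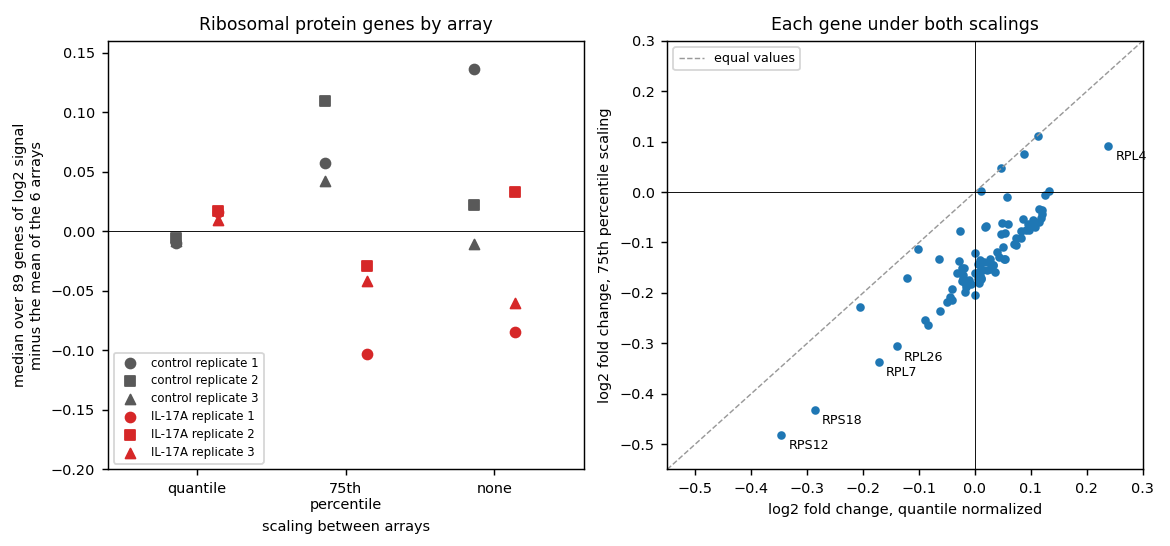
Left, the median over 89 ribosomal protein genes of the log2 signal minus the mean of the 6 arrays, for each array (shape: replicate) under quantile normalization, 75th percentile scaling and no scaling. Right, the log2 fold change of 87 single genes under the first against the second scaling, where nearly all points lie below the line of equal values. The family median moves from 0.012 to -0.14.

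RPS12, a protein of the head of the small subunit, was the subunit gene that changed. Its normalized log2 signal was 14.36, 14.51 and 14.48 with IL-17A and 14.81, 14.84 and 14.73 in controls, or 14.45 ± 0.077 against 14.79 ± 0.061 (SD, n = 3 each). The groups did not overlap, and the gap between them was larger than the range within either. The log2 fold change was -0.35 ± 0.057 (SE), or 0.79-fold with a 95% interval of 0.71 to 0.87 (adjusted p = 0.036 by limma). With the 75th percentile it was -0.48 (adjusted p = 0.042). RPS12 had 1 probe, and its groups did not overlap on that scale either. The adjusted p was 0.094 with scan as a block, where IL-17A replicate 1 alone is set against the controls and the log2 fold change was -0.43, and 0.12 with the replicate number as a block. It was 0.069 to 0.14 when IL-17A replicate 1, 2 or 3 or control replicate 1 or 2 was left out, each of which ended the call, and the gene was lower throughout.

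**Figure D3:**
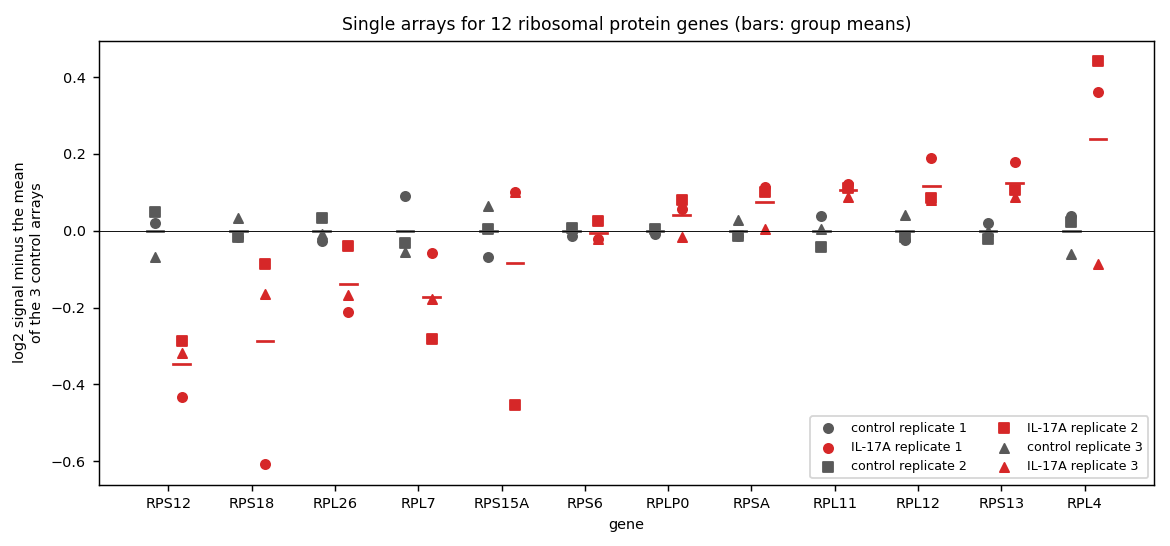
Normalized log2 signal of 12 ribosomal protein genes on each array, minus the gene's mean over the 3 controls. Grey marks are controls, red marks IL-17A, shapes are replicates and bars are group means. RPS12 lies 0.35 below the control mean on average, and the spread of RPS18, RPS15A and RPL4 comes from single IL-17A arrays.

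The stalk genes did not differ beyond their spread after quantile normalization. RPLP0, the protein that anchors the stalk, had 15.75, 15.77 and 15.68 with IL-17A and 15.69, 15.70 and 15.70 in controls, and the groups overlapped. Its log2 fold change was 0.040 ± 0.040 (adjusted p = 0.54). RPLP1, a partner of RPLP2, had a log2 fold change of 0.0077 with a 95% interval of -0.078 to 0.093. RPLP2 carried the brightest probe of each array, and quantile normalization therefore set it to 16.59 on all 6, so that its difference was 0 by construction. Before normalization it was 16.50, 16.56 and 16.48 with IL-17A and 16.70, 16.72 and 16.60 in controls, without overlap. Scaled to the 75th percentile, the 3 stalk genes had log2 fold changes of -0.12 for RPLP0, -0.18 for RPLP1 and -0.20 for RPLP2, each without overlap, and none was called (adjusted p = 0.14, 0.069 and 0.085).

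Of the 43 large subunit genes, none was called after quantile normalization (limma, unadjusted p under 0.05 for 3 higher and 2 lower), 30 lay above control and 13 below, and the median log2 fold change was 0.020. RPL5 and RPL11, which carry the 5S RNA into the large subunit and bind MDM2 when free, had log2 fold changes of 0.021 ± 0.041 and 0.11 ± 0.039 (adjusted p = 0.76 and 0.13). RPL11 had 15.70, 15.69 and 15.66 with IL-17A and 15.61, 15.53 and 15.58 in controls, and the groups did not overlap. With the 75th percentile the order turned, with -0.060 and the IL-17A arrays below the controls. RPL3, which reaches toward the peptidyl transferase centre, had -0.017 with an interval of -0.12 to 0.080, and its second probe had 0.15. RPL10, which joins the large subunit late in its maturation, had 0.0050 with an interval of -0.090 to 0.10. After 75th percentile scaling 42 of the 43 lay below control, and RPL4 lay above it at 0.092.

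RPL26 and RPL7 were the lowest of the bright large subunit genes. RPL26 had 15.58, 15.75 and 15.63 with IL-17A and 15.77, 15.83 and 15.78 in controls, without overlap. Its log2 fold change was -0.14 ± 0.056 (adjusted p = 0.16), and its second probe had -0.15. With the 75th percentile it was -0.31 (adjusted p = 0.060). RPL7 had 15.49, 15.27 and 15.38 against 15.64, 15.52 and 15.50, again without overlap, and its log2 fold change was -0.17 ± 0.073 (adjusted p = 0.18). It passed the test at 75th percentile scaling, with -0.34 (adjusted p = 0.041 by limma). The other 2 probes of RPL7 had 0.092 and -0.050 after quantile normalization, where the brightest probe had -0.17. Their values at 75th percentile scaling are not given here.

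Of the 31 small subunit genes, RPS12 was called, 20 lay above control and 11 below, and the median was 0.016. RPS6, the substrate of the S6 kinases, had 15.74, 15.78 and 15.74 with IL-17A and 15.74, 15.77 and 15.77 in controls, and the groups overlapped at a log2 fold change of -0.0064 ± 0.035. RPS19, mutated in Diamond-Blackfan anaemia, had 0.016 ± 0.054. RPSA, which is also known as a precursor of a laminin receptor, had 15.38, 15.37 and 15.27 with IL-17A and 15.25, 15.25 and 15.29 in controls, where 2 of 3 IL-17A arrays lay above the controls, and a difference of 0.074 ± 0.045 (adjusted p = 0.31). After 75th percentile scaling 30 of the 31 lay below control, among them RPS6 with -0.18 (adjusted p = 0.063).

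A further set of genes was named after its values were seen, since their unadjusted p was under 0.05. RPS16, RPS13, RPL12, RPL14, RPS21 and RPS7 were above control, with log2 fold changes of 0.13, 0.12, 0.12, 0.11, 0.10 and 0.091, and their adjusted p was 0.11 to 0.16. RPS13 had 14.67, 14.60 and 14.58 with IL-17A and 14.51, 14.47 and 14.49 in controls, without overlap. With the 75th percentile these differences were gone or turned, since RPS16 had 0.0019, RPS13 -0.0050, RPL12 -0.051, RPS21 -0.056, RPL14 -0.069 and RPS7 -0.076, and RPL14 and RPS7 had their IL-17A arrays below the controls. RPL27A, with 1 dim probe, had -0.21 ± 0.058 (adjusted p = 0.081), and RPL26L1-AS1 -0.12 ± 0.040 (adjusted p = 0.11). In all, 18 members had their IL-17A arrays above the controls and 8 below, against 21.3% and 19.3% of all genes.

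**Figure D4:**
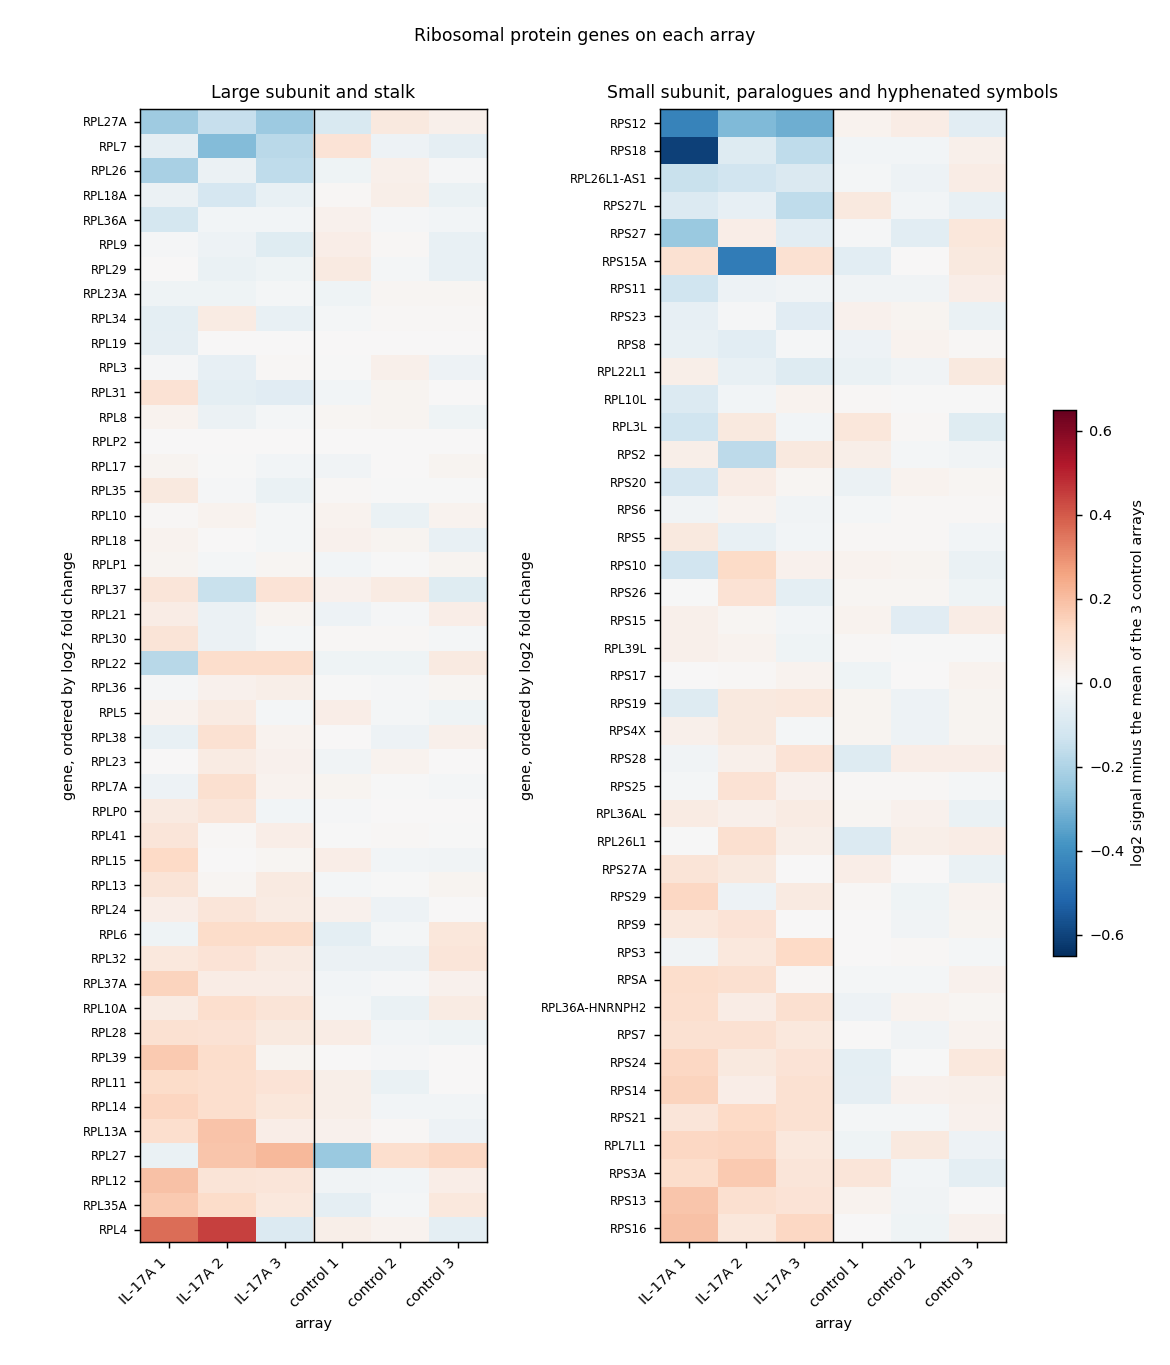
Normalized log2 signal of 87 ribosomal protein genes on each array (columns), minus the gene's mean over the 3 controls, ordered by log2 fold change within each panel. Blue is below and red above the control mean. Most rows are near white, and RPS12 is blue on all 3 IL-17A arrays. RPS18 is bluest on IL-17A replicate 1, RPS15A is blue on IL-17A replicate 2, and RPL4 is red on IL-17A replicates 1 and 2.

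A few genes varied within a group by more than the groups differed. For 6 members the SD of a group was over 0.15, and of these RPS18, RPL4, RPS15A and RPL27 were named after their values were seen, beside RPL22 and RPS4Y1. RPS18 had 15.64, 16.16 and 16.08 with IL-17A and 16.23, 16.23 and 16.28 in controls. The groups did not overlap, and the log2 fold change was -0.12 without IL-17A replicate 1 (adjusted p = 0.17 by limma). The first IL-17A array stood apart, and with all arrays the log2 fold change of -0.29 ± 0.14 did not pass the test (adjusted p = 0.23). It was called with the scan block at 75th percentile scaling, where this array alone stands against the controls (-0.81, adjusted p = 0.044), while its second probe had 0.045. RPL4 had 15.15, 15.23 and 14.70 against 14.83, 14.81 and 14.73, where the third IL-17A array lay below the controls and the other two above. RPS15A had 15.99, 15.43 and 15.99 against 15.82, 15.89 and 15.95, with the second IL-17A array apart. RPL27 varied most among controls, at 14.70, 15.05 and 15.08. The median SD over members was 0.050 with IL-17A and 0.032 in controls, and 56 members had the larger SD with IL-17A. Over all genes these medians were 0.069 and 0.066.

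The 10 paralogues, some of which replace a parent protein in certain tissues, had a median of -0.027, with 4 above control and 6 below, and 7 of the 10 were below it after 75th percentile scaling. RPS27L had 10.66, 10.70 and 10.58 with IL-17A and 10.81, 10.73 and 10.70 in controls, just without overlap, and its log2 fold change was -0.10 ± 0.051 (adjusted p = 0.23), and its parent RPS27 had -0.090 ± 0.084. RPL22L1 and RPL22, known to act against each other in blood development, had -0.032 ± 0.053 and 0.017 ± 0.092. The second, less bright probe of RPL22 had 0.14 (adjusted p = 0.11 by limma). RPL7L1 was above control at both scalings, with 0.11 ± 0.046 (adjusted p = 0.16) after quantile normalization and 0.11 with the 75th percentile. RPL36AL and RPL36A had 0.046 and -0.050, RPL26L1 0.047, and RPL39L and RPL39 0.011 and 0.10, the last with an adjusted p of 0.22. The dim RPL3L, a muscle form, had -0.027 ± 0.068. RPL10L, an intronless copy of RPL10 known from testis, had -0.028 ± 0.042 at a mean log2 signal of 14.27. The probe sequences were not used here, so that a probe of a near-identical copy cannot be told apart from its parent.

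Among the 39 genes with more than 1 tested probe, the log2 fold changes of a gene's probes differed by 0.13 at the median, and in 23 genes they had both signs. No gene had probes called in opposite directions. RPL21 had 9 probes with log2 fold changes from -0.24 to 0.13, RPS3A 5 probes from -0.23 to 0.12, and RPS26 3 probes from -0.061 to 0.41, the last from a dim probe. These spans were wider than the difference of most genes, and the genes were named for them. RPS29 had 1 probe called higher, for another transcript than its other 3 probes.

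**Figure D5:**
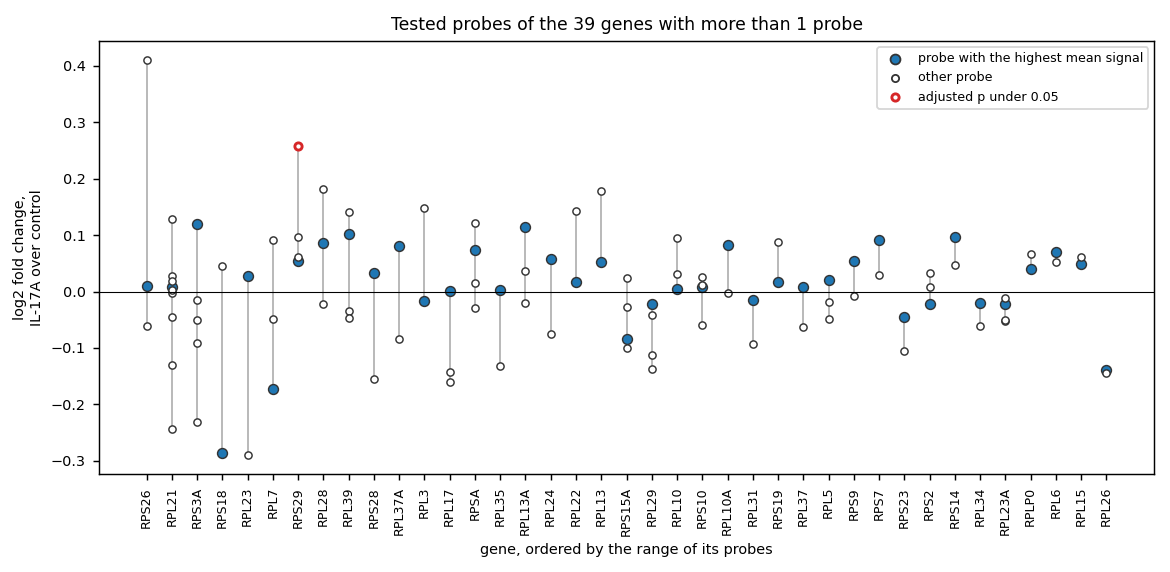
Log2 fold change of each tested probe of the 39 ribosomal protein genes with more than 1 probe, ordered by the range within the gene. Filled points are the probe with the highest mean signal, open points the others, and a red edge marks an adjusted p under 0.05. The probe of RPS29 at 0.26 is the point with a red edge, and 8 genes span more than 0.2.

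Other genes of translation were compared from fixed lists. FAU and RACK1, ribosomal proteins outside the symbol rule, had log2 fold changes of 0.081 and 0.048, and neither was called. Of 15 translation factors and other genes listed as known for the tract, which was found at an annotated start of 8 of the 10 with a RefSeq start here, 11 lay above control and 4 below, with a median of 0.056, and EIF3H, a subunit of the initiation factor eIF3, was called higher (0.32 ± 0.054, adjusted p = 0.036). After 75th percentile scaling 11 of the 15 were below control, with a median of -0.090, and 1 was called lower and none higher, and the one called was EEF1A1, the elongation factor that brings aminoacyl-tRNA to the ribosome (-0.24, adjusted p = 0.048, against -0.064 after quantile normalization). Of 77 mitochondrial ribosomal protein genes, 54 lay below control, with a median of -0.056, and 5 were called lower and 1 higher. The called ones were MRPL4 (-0.33), MRPL12 (-0.30), MRPS12 (-0.30), MRPL28 (-0.29) and MRPS7 (-0.19), with MRPS24 (0.20) higher. With the 75th percentile their median was -0.069, and 55 were below control. MRPS7 and MRPS24 were then not called, and MRPS34 (-0.23) was called lower in addition to the other 4. The probes of 16 pseudogene symbols left out of the family had a median of -0.082, and 1 was called lower, RPL23AP64 (-0.41). With the 75th percentile their median was -0.20, and 2 were called lower, RPL23AP64 and RPS7P5. The shares called over all named genes were 3.48% lower and 4.37% higher after quantile normalization, and 3.91% lower at 75th percentile scaling. The called genes in these lists were picked by their test result. The differences between these lists and the ribosomal protein genes, or all named genes, were not tested.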

How the data were processed

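RNA of 3 IL-17A and 3 control samples of SU-DHL-2 was measured on 1-colour Agilent arrays, and samples were grouped by their labels. The deposited scanner files, made with Agilent Feature Extraction 11.0.1.1 per the labels, hold an intensity per spot with the background subtracted, the median brightness of spot and background, and flags. A deposited table of log2 values, quantile normalized by the authors, served as an alternative. Control and non-uniform spots (4 to 25 an array) were removed, intensities under 1 were set to 1, the log2 values of a probe's spots were averaged, and quantile normalization between arrays followed, as the methods name it. Detected meant positive, significant and well above background. The 23945 probes (70.2%) detected on at least 3 of 6 arrays were tested with limma 3.58.1 (R 4.3.3), two-sided, with Benjamini-Hochberg adjustment over all of them. Names came from RefSeq accessions (GRCh38.p14, 25771 probes). The probe with the highest mean signal stood for a gene. Scripts were tested on simulated data. With 3 arrays against 3, no exact test of a single value gives a p below 0.1. The number of arrays limits the precision.

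Genes were named by a rule: up to 6 highest and 6 lowest called genes, the stalk genes, RPSA, RPL5, RPL11, RPS6, RPS19, RPL10, RPL3, paralogues with their parents, and genes whose probes were called in opposite directions. RPS4Y1 and RPS4Y2 were to be counted only, but values of both were given after they were seen. The members and lists were chosen with earlier results of these data known. Results for some items are not reported here.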

Additional observations from a re-analysis of the deposited data

Results flagged for a closer look

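A probe of RPS29 that the comparison of genes did not use, since another probe of the gene was brighter, was higher with IL-17A. This probe is assigned to a second RefSeq transcript of RPS29, and it had 10.04, 10.07 and 10.09 with IL-17A and 9.79, 9.76 and 9.87 in controls, without overlap. Its log2 fold change was 0.26 ± 0.045 (SE, n = 3 each, adjusted p = 0.037 by limma). The other 3 probes of RPS29 had 0.054, 0.097 and 0.061, none of them called.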

How the results depend on the processing

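The number of genes called lower (2) fell to 0 without normalization, with the methods' test and with the scan block. It was also 0 at the second brightest probe, which 39 genes have and RPS12 and RPS4Y2 do not, so that neither could be called there, and 1 at a fold change of 1.5 with an unadjusted p. The replicate numbers did not pair the samples (correlations of same-numbered deviations -0.087, -0.0022 and -0.047), and 0 were called with the replicate block, which left the median at 0.012. The number called higher (0) rose to 2 with normexp (RPL12 and RPS13) and to 2 with a variance trend (RPS13 and RPS16), named after their values were seen. The median of 0.012 moved to -0.14 at 75th percentile scaling, -0.097 without normalization, 0.019 with normexp, 0.023 with the scan block and -0.0027 at the second brightest probe (39 genes). With an array left out, 0 to 2 were called lower (2 without control replicate 3, 0 without any of the other 5 arrays), 0 higher, the median was 0.013 to 0.024, and 29 to 40 groups did not overlap instead of 26. With 2 arrays against 3, groups separate more easily than with 3 against 3, and no share over all genes is given for these counts. At 75th percentile scaling 61 groups did not overlap, and 59 of them were lower with IL-17A, against 22.7% of all genes.

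As a choice made after seeing the data, 75th percentile scaling was combined with the scan block, which gave 1 called lower (RPS18) and a median of -0.17, and with each array left out, which gave 0 called lower and a median of -0.15 to -0.11 without an IL-17A array and of -0.15 to -0.12 without a control. RPS12 was lower in each of the alternatives run, with a log2 fold change of -0.63 to -0.30, an adjusted p of 0.0075 to 0.16, and a call that held in 8 of 24. Of 610 values of named genes under an alternative, 131 changed sign in genes called in neither setting, and none reversed a call. Arrays give no count, so that signal over background and the number of arrays limit these values.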
